A study of Mus musculus with 3 samples.

Results

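The genes described are 34 members of the interferon response and antigen presentation pathways, given as a list of gene symbols. The rule that reads them uses no measured difference, but the list was chosen with earlier results of these data known. A member was read where a probe set of the array listed it as its only gene, and the probe set with the highest mean over the 3 arrays stood for it. Of the 34 members 32 were measured, out of 18193 genes with such a probe set. Isg15, an interferon-induced ubiquitin-like protein, shares its probe set with another gene in the platform annotation, and Ifi44 was listed on no probe set of the annotation used here, so neither has a value.

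The livers came from mice aged 3 months and of mixed strain background, and were harvested 1 week after the mice received 400 microL of an adeno-associated virus (AAV8) by a single injection into the abdomen. The control livers (n = 2 mice) received MUP-EGFP-AAV8, which carries a green fluorescent protein, and the Cre liver (n = 1 mouse) received MUP-iCre-AAV8, which carries a recombinase that cuts out floxed DNA. The target was the gene of HNF4alpha, a nuclear receptor and master regulator of hepatocyte genes. The design text calls the mice of both virus groups floxed for HNF4alpha, whereas the sample labels give the genotype wild type for the controls and HNF4alpha knockout for the Cre mouse, and this difference could not be settled. All 3 mice carried an AAV8 vector, so a response to the vector that both groups share does not appear in the comparison, and no uninjected liver was analysed here. The labels say nothing of the viruses' promoters beyond these names.

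Interferons are secreted signals of infection. Type I interferons act through STAT2 and IRF9, which take part in binding interferon-stimulated response elements and switch on antiviral genes of the Ifit, Oas and Mx families. Interferon gamma acts through gamma-activated sites and through IRF1, and is known above all for guanylate-binding proteins, immunity-related GTPases, the chemokines Cxcl9 and Cxcl10, the immunoproteasome and the peptide transporter that load MHC class I molecules. Many genes respond to both kinds. In liver these responses occur in hepatocytes, Kupffer cells and endothelial cells.

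Values are log2 expression as deposited, and a difference is the Cre value minus the mean of the control values in log2 units, with limma's moderated standard error (SE). A gene rose or fell where limma's Benjamini-Hochberg adjusted p over all 18193 genes was under 0.05. A second description, with no test, counted genes whose Cre value lay at least 2-fold (1 log2 unit) beyond both controls. The spread came from the control arrays alone, since the Cre group has 1 mouse, and the test takes that mouse to vary as the controls do. Hnf4a itself read 11.91 and 11.96 in the control pair and 11.38 with Cre virus on its brightest probe set (-0.55 ± 0.10 SE, adjusted p = 0.0672 by limma), and its other probe sets were lower by 0.61, 0.67 and 1.18. Where these probe sets lie relative to the floxed part was not analysed here. Across probe sets the control arrays correlated at a Pearson's r of 0.993, and the Cre array at 0.970 with control 1 and 0.972 with control 2. Of 7 hepatocyte markers 4, Alb, Ttr, Apoe and Fga, lay below both controls without passing, where 37.9% of all genes lay below both. Hp, which encodes haptoglobin, rose (0.85, limma adjusted p = 0.0283). The list's median difference was -0.10, and its mean level was 13.94, 13.98 and 14.02 over the control 1, control 2 and Cre arrays.

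In the Cre liver all 4 GTPase members, both chemokines and 5 of 6 antigen processing genes lay above both controls, with 2, 1 and 1 of them passing the test. No Ifit, Oas or Mx member passed. Of the 32 measured members 7 rose (limma), namely Usp18, Igtp, Cxcl10, Gbp2, Xaf1, Irf1 and Psmb8, where 2.45% of all genes rose. None passed as lower by limma, where 2.80% of all genes did, and at an unadjusted p under 0.05 there were 15 members higher (14.8% of all genes) and 2 lower, Bst2 and Oasl1 (8.79% of all genes). At least 2-fold above both controls lay 7 members (2.79% of all genes), and 1, Bst2, lay as far below (2.63% of all genes). The Cre value was above both controls in 21 members (41.2% of all genes), below both in 6 (37.9% of all genes) and between them in 5. The median difference of the members was 0.40, against 0.01 over all genes. The latter depended on dim genes. With genes under the 30th percentile of mean expression left out these medians were 0.42 and 0.09, and under the 50th 0.42 and 0.15.

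The count of members that passed depended on the fit. With genes under the 30th percentile of mean expression (3.77) left out, which drops Oasl2 and Mx1, 11 members rose and 1 fell by limma, with 6.71% and 5.21% of 12735 genes called in these directions. With quantile normalization 14 rose and 2 fell, where 7.31% and 5.77% of all genes did. With each array centred on its median 13 rose and 1 fell, where 7.48% and 4.60% of all genes did. Calls thus became more frequent over all genes too under these settings. Higher genes made up 46.7% of all calls in the fit of all genes, and 61.9% after median centring.

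**Figure D1:**
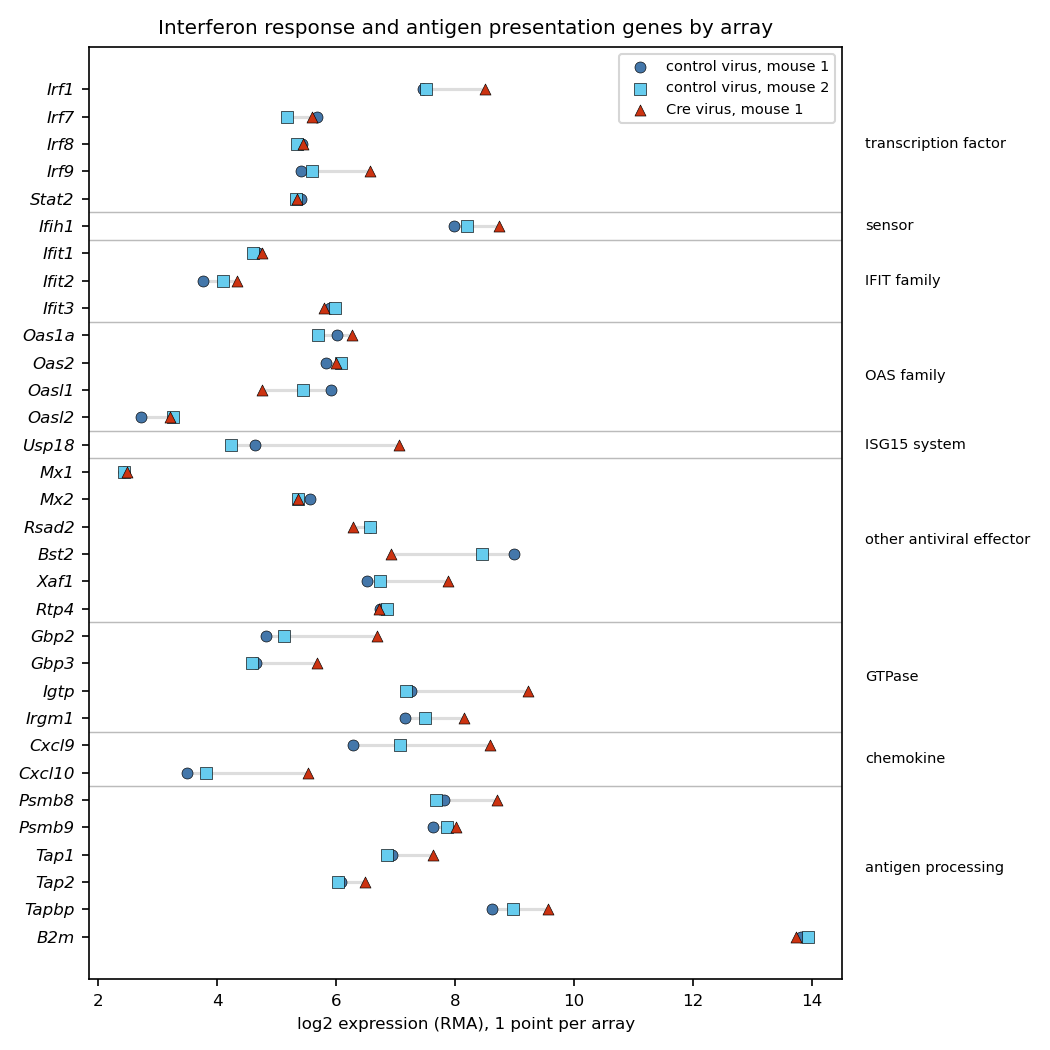
Log2 expression (RMA) of the 32 measured members, 1 row per gene and 1 point per array, grouped by role. The Cre liver stands apart to the right for Usp18, Gbp2, Igtp, Cxcl9 and Cxcl10 and to the left for Bst2, while the points of Ifit1, Stat2 and Mx1 nearly coincide.

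The stretch before the transcription start of 7 members is printed here, because these promoters carry the response elements named above and belong to genes that rose (Igtp, Gbp2, Cxcl10, Irf1 and Psmb8), lay near the controls (Ifit1) or were lower (Bst2). They are RefSeq sequences of GRCm38.p6, each ending at the base before the annotated start, from chr11:58199406-58199555 (plus strand), chr3:142620513-142620662 (plus strand), chr5:92348890-92349119 (minus strand), chr11:53769864-53770013 (plus strand), chr17:34198045-34198194 (plus strand), chr19:34640739-34640888 (plus strand) and chr8:71537473-71537622 (minus strand), for the genes in the order listed. Capitals mark matches on either strand to the core of the interferon-stimulated response element, which is GAAA, any 2 bases and GAAA again, or to the gamma-activated site, TTCNNNGAA. In Bst2 matches to both overlap in 1 run of capitals.
Igtp: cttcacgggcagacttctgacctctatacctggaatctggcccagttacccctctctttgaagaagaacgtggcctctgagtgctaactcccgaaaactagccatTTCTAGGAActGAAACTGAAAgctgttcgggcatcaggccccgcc
Gbp2: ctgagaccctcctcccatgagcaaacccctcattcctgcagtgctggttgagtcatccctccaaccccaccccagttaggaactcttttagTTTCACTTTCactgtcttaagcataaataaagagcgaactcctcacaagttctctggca
Cxcl10: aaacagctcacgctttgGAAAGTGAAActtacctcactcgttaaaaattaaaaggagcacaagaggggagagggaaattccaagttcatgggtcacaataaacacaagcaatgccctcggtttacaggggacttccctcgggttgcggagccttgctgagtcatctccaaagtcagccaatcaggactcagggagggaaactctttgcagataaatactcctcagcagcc
Irf1: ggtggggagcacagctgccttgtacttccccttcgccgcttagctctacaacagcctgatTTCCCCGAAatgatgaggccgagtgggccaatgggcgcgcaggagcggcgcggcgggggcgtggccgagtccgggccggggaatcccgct
Psmb8: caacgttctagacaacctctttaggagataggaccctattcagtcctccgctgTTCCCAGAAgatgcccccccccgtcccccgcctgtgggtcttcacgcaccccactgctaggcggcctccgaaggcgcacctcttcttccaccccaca
Ifit1: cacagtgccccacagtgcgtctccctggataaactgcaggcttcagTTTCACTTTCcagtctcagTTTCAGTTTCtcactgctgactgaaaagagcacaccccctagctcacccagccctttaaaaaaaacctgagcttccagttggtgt
Bst2: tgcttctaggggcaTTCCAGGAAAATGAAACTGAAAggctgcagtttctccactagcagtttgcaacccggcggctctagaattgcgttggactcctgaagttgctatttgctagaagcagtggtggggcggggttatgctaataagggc

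Of the measured members 26 had a promoter in the table of RefSeq sequences, searched over the 250 bases before each start. The response element core was found in 12 of the 26 (46.2%), against 3.46% of 27025 genes with a promoter of that length, and the gamma-activated site in 7 (26.9%), against 8.13%. Among members that rose and had a sequence, 3 of 6 held the response element core and 3 of 6 the gamma-activated site. Among members that did not pass, 9 of 20 held the former and 4 of 20 the latter. Xaf1, which rose, held neither element in its window, and Usp18, with the largest rise, had no sequence to search. A match to the HNF4 core CAAAGTCCA was in none of the 26 windows and in 0.451% of all genes. Ifit1 holds 2 response element cores and Bst2 holds 2 as well, and neither of these genes rose. The matches are descriptions of letters in these windows and no measure of binding.

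Among the transcription factors, Irf1 rose and Irf9 had a difference of like size. Irf1, an activator of interferon gamma targets, read 7.46 and 7.51 in the control pair and 8.50 with Cre virus, a 2.03-fold rise (1.02 ± 0.13 SE, limma adjusted p = 0.0384). Its promoter above holds a gamma-activated site that ends 82 bases before the start. Irf9, the DNA-binding partner of STAT2, was at 5.41 and 5.59 against 6.56, above both controls, without passing (1.06 ± 0.17 SE, limma adjusted p = 0.062). Stat2, its partner, was at 5.41 and 5.32 against 5.33 (-0.03, 95% interval -0.50 to 0.43), so the Cre value lay between the controls. Irf7, which amplifies type I interferon production, was at 5.68 and 5.17 against 5.60 (0.17, 95% interval -0.59 to 0.94). The myeloid factor Irf8 was at 5.43 and 5.35 against 5.43 (0.05, turning to -0.06 with quantile normalization). Ifih1, the double-stranded RNA sensor MDA5, was at 7.98 and 8.19 against 8.73 and did not pass (0.65 ± 0.15 SE, limma adjusted p = 0.113).

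The antiviral effectors split, with 2 of 14 measured genes rising by limma, where 2.45% of all genes did, and a median difference of 0.04. Usp18, a protease that removes ISG15 from proteins and restrains the type I interferon receptor, had the largest rise of any member. It read 4.64 and 4.22 in the control pair and 7.05 with Cre virus, a 6.14-fold rise (2.62 ± 0.24 SE, limma adjusted p = 0.0231). Xaf1, an interferon-induced gene linked to cell death, was at 6.52 and 6.74 against 7.88 (1.25 ± 0.17 SE, limma adjusted p = 0.0434). The Cre value of each was over 2-fold above the nearest control. The second probe set of Xaf1, at 3.00, 2.71 and 2.62, was lower in the Cre liver, and the mean of both gave 0.51 without passing (limma adjusted p = 0.134).

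No member of the Ifit and Oas families passed, where 2.45% of all genes rose and 2.80% fell. Ifit1, which binds foreign RNA, was at 4.68 and 4.60 against 4.75 in the Cre liver, although its promoter holds the response elements printed above. Its difference was 0.10 with a 95% interval of -0.38 to 0.59. Ifit2 (0.40, interval -0.24 to 1.04) and Ifit3 (-0.14, interval -0.59 to 0.30) did not pass. The 3 Ifit intervals therefore leave room for rises of up to about 2-fold in Ifit2 and less in the other genes of this family. Of the oligoadenylate synthetases, which activate RNA decay, Oas1a was at 6.02 and 5.68 against 6.26 (0.41, interval -0.18 to 1.01). Oas2 was at 5.82 and 6.08 against 5.99 (0.04, and -0.08 with quantile normalization).

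Of the Oas-like genes, Oasl1 read 5.91 and 5.44 in the control pair and 4.75 with Cre virus, below both (-0.92 ± 0.26 SE, limma adjusted p = 0.154). Oasl2 was at 2.71 and 3.25 against 3.20, below 3.77 on every array, so a change in it could not be read. The Mx genes encode dynamin-like antiviral GTPases. Mx1 was at 2.43 and 2.44 against 2.48, below 3.77 on every array, so a change in it could not be read. Mx2 was at 5.56 and 5.35 against 5.36 (-0.10), and Rsad2, which makes an antiviral nucleotide, was at 6.56 and 6.57 against 6.29 (-0.28). The other, dimmer probe sets of Rsad2 differed in sign, at 0.04 and -0.40. Rtp4, an interferon-induced chaperone, was at 6.73 and 6.86 against 6.71 (-0.08).

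Bst2, which encodes tetherin, a membrane protein that holds budding virus on the cell, was the member with the largest difference downwards. It read 8.99 and 8.45 in the control pair and 6.93 with Cre virus, a 3.47-fold difference (-1.79 ± 0.27 SE, limma adjusted p = 0.0532). Both controls lay more than 1 log2 unit above the Cre value. It narrowly missed the threshold with all genes fitted, and passed in 6 of 9 other settings, with adjusted p from 0.000758 to 0.0729. The plasmacytoid dendritic cell markers, a cell type for which Bst2 is also used as a marker, averaged 3.76, 3.68 and 3.67 in log2 expression, and 2 of these 3 were below 3.77 on every array.

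**Figure D2:**
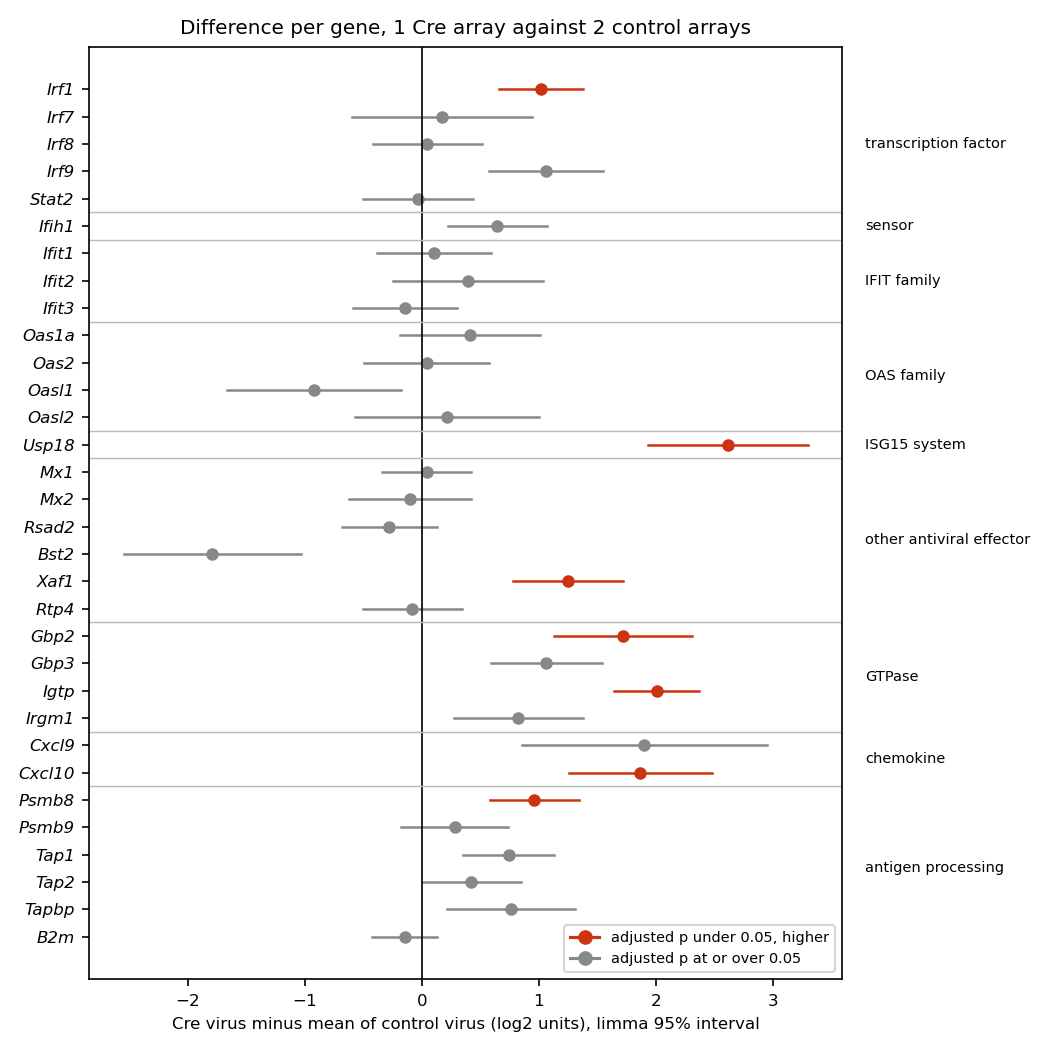
Difference between the Cre array and the mean of the control arrays for each measured member, in log2 units, with limma's 95% interval as a line and genes with an adjusted p under 0.05 in red. All 4 GTPases and both chemokines lie to the right of 0, the Ifit and Mx intervals cross 0, and Bst2 lies at -1.79.

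All 4 measured GTPases had Cre values above both controls (41.2% of all genes), and 2 rose (2.45% of all genes). Igtp, also called Irgm3, an immunity-related GTPase that guards vacuoles holding pathogens, read 7.26 and 7.18 in the control pair and 9.23 with Cre virus. This was a 4.02-fold rise (2.01 ± 0.13 SE) with the lowest adjusted p of the members (0.0111 by limma), and its promoter holds both elements within 45 bases of the start. Gbp2, a guanylate-binding protein of the same defence system, was at 4.81 and 5.13 against 6.69, a 3.30-fold rise (1.72 ± 0.21 SE, limma adjusted p = 0.0372). Its second probe set was also higher, at 4.31 and 4.44 against 6.40 (2.02). Gbp3 was at 4.65 and 4.58 against 5.68, more than 2-fold above both controls, without passing (1.07 ± 0.17 SE, limma adjusted p = 0.0587). Irgm1, a regulator of these GTPases, was at 7.15 and 7.49 against 8.14 (0.82 ± 0.20 SE, limma adjusted p = 0.116). The guanylate-binding protein genes are close in sequence, and Gbp2 and Gbp3 were read by probe sets with the suffixes _x_at and _a_at, which can read more than 1 transcript.

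Both chemokines, which draw T cells and NK cells through the receptor CXCR3, lay more than 2-fold above both controls. Cxcl10 was at 3.49 and 3.81 against 5.52 (1.87 ± 0.22 SE, limma adjusted p = 0.0341). Its control mean of 3.65 was below 3.77, so the size of this rise is uncertain. Cxcl9 was at 6.28 and 7.07 against 8.58 (1.90 ± 0.37 SE) and did not pass (limma adjusted p = 0.083). The controls of Cxcl9 differed by 0.79, the widest gap among the members, and the difference was 2.30 against control 1 and 1.51 against control 2. A second Cxcl9 probe set stood at 3.45 and 3.94 against 4.93.

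The genes that cut and load peptides for MHC class I were mostly higher, with 5 of 6 above both controls and 1 passing. Over all genes these shares were 41.2% and 2.45%. Psmb8, a catalytic subunit of the immunoproteasome, read 7.81 and 7.68 in the control pair and 8.71 with Cre virus, a 1.95-fold rise (0.96 ± 0.13 SE, limma adjusted p = 0.0468). Its other probe set was dim, at 3.08 and 3.13 against 3.24, and the mean of both gave 0.55 without passing (limma adjusted p = 0.113). Psmb9, another such subunit, was at 7.62 and 7.85 against 8.02 (0.28, 95% interval -0.18 to 0.74). Tap1, a chain of the peptide transporter, was at 6.93 and 6.85 against 7.63 (0.74 ± 0.14 SE, limma adjusted p = 0.0774). Its 3 other probe sets, with control means of 3.79, 2.76 and 2.26, were lower by 0.36, 0.27 and 0.12, so the mean of all 4 was -0.00066.

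Tap2, its partner, was at 6.09 and 6.03 against 6.48 (0.42, limma adjusted p = 0.211). Tapbp, or tapasin, which bridges the transporter and MHC class I, was at 8.61 and 8.97 against 9.55 (0.76 ± 0.19 SE, limma adjusted p = 0.127). A second Tapbp probe set was at 4.91 and 4.63 against 4.92 (0.15). B2m, the light chain of MHC class I, was bright on every array, at 13.81 and 13.93 against 13.72, below both controls (-0.15, 95% interval -0.43 to 0.13). Its second probe set was also lower, by 0.23.

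A wider list of 135 other genes of these pathways was read in the same fit, and 113 were measured. Of these 10 rose and 2 fell by limma (2.45% and 2.80% of all genes). At least 2-fold above both controls lay 11, and 1 lay as far below (2.79% and 2.63% of all genes). The median difference was 0.14. The GTPases had the highest median of the groups of this wider list (1.61), with 3 of 5 rising and 4 of 5 at least 2-fold above both controls. Gbp6 was at 5.35 and 5.64 against 7.95 (2.46 ± 0.19 SE, limma adjusted p = 0.0169). Gbp7 was at 7.09 and 7.36 against 8.84 (1.61 ± 0.17 SE, limma adjusted p = 0.0299), and Irgm2 was at 5.97 and 6.71 against 8.70 without passing (2.36 ± 0.35 SE, limma adjusted p = 0.0521). Iigp1 also rose, at 11.13 and 11.26 against 12.31 (1.12 ± 0.11 SE). The remaining measured GTPase, Ifi47, was at 8.04 and 8.75 against 8.64, between the controls.

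Of 36 further antiviral effectors 3 rose and 1 fell (2.45% and 2.80% of all genes), with a median difference of 0.06. Herc6, the mouse ligase that attaches ISG15, was at 5.08 and 5.05 against 6.38 (1.31 ± 0.16 SE, limma adjusted p = 0.0371). Cmpk2, a nucleotide kinase induced by interferon, was at 4.38 and 4.48 against 5.68 (1.25 ± 0.17 SE, limma adjusted p = 0.0455). Lgals9, which encodes galectin-9, was the gene that fell, at 9.67 and 9.75 against 8.86 (-0.84 ± 0.11 SE, limma adjusted p = 0.044). Among the sensing genes Tlr3, a receptor for double-stranded RNA, rose from 4.54 and 4.25 to 5.89 (2.83-fold, with an SE of 0.21 log2 units, limma adjusted p = 0.046). Zbp1, a sensor of nucleic acids that can trigger cell death, was at 5.05 and 4.49 against 6.38 without passing (1.61 ± 0.29 SE, limma adjusted p = 0.0747).

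**Figure D3:**
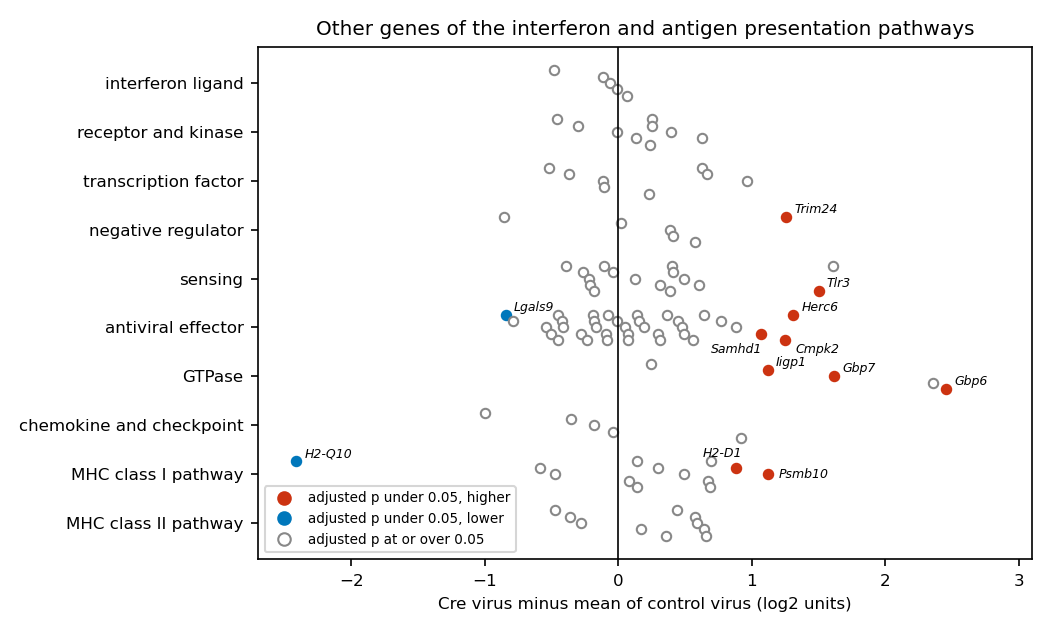
Difference between the Cre array and the mean of the control arrays, in log2 units, for 113 other genes of these pathways, 1 point per gene and grouped by role (vertical offsets only separate points). Red and blue points passed limma's threshold as higher (10 genes) and lower (2 genes), and H2-Q10 lies farthest to the left at -2.42.

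None of the 5 measured interferon genes passed limma's test, at an adjusted or an unadjusted p under 0.05. By the adjusted p 2.45% of all genes rose and 2.80% fell, and by the unadjusted p 14.8% and 8.79% did. Ifnb1 read 3.61 and 3.85 in the control pair and 3.79 with Cre virus, and Ifng was at 2.34, 2.34 and 2.32, a dim reading on every array, from which a low level cannot be told from background. The type I receptor chain Ifnar1 was at 6.70 and 6.52 against 6.31 (-0.30, limma adjusted p = 0.358). The interferon gamma receptor chain Ifngr1 was at 6.80 and 6.86 against 7.45 (0.62 ± 0.14 SE, limma adjusted p = 0.103). Neither passed.

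The MHC class I genes went both ways. H2-Q10, a nonclassical MHC class I gene that liver secretes as a soluble protein, had the largest fall of the wider list, from 12.74 and 12.76 to 10.33, or 5.34-fold (-2.42 ± 0.09 SE, limma adjusted p = 0.00405). The classical gene H2-D1 rose from 11.53 and 11.43 to 12.36 (0.88 ± 0.10 SE, limma adjusted p = 0.0334), and H2-K1 was at 12.18 and 12.45 against 12.98 without passing (0.67 ± 0.15 SE, limma adjusted p = 0.104). Nlrc5, the activator of MHC class I genes, was at 6.84 and 6.48 against 7.63 (0.97 ± 0.21 SE, limma adjusted p = 0.101). MHC class I genes are near copies of each other and vary between strains, so these readings are uncertain as to the gene. The probe sets of H2-D1 and H2-K1 also carry the suffix _x_at.

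Markers of other cells were read on the same arrays, and in total liver RNA a change in the number of cells of a type and in RNA per cell cannot be told apart. Of 11 Kupffer cell markers 10 lay above both controls, where 41.2% of all genes did. Only 1, the scavenger receptor gene Marco, rose (4.74 and 4.67 against 6.58, limma adjusted p = 0.0204), where 2.45% of all genes did. The mean log2 expression of that list was 6.12, 6.65 and 7.09 over control 1, control 2 and the Cre liver, and no marker in it was below 3.77 on every array. Of the 7 members that rose, Gbp2, Xaf1, Cxcl10 and Irf1 had the same order over the arrays, whereas Usp18, Igtp and Psmb8 were lower in control 2 than in control 1. That order was seen in 12 of the 32 measured members (37.5%), Cxcl9, Irf9, Ifih1, Irgm1 and Tapbp among them, against 22.3% of all genes. It can occur only where the Cre value is above both controls, which more members than genes at large were. Of the 21 members above both controls 12 had it (57.1%), and of the 7498 such genes on the array 4049 did, so these counts do not set the members apart. The part of these markers in the rise of the interferon genes was not tested.

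Lymphocyte markers did not follow that order. The T cell list averaged 3.93, 3.86 and 3.88 over 7 markers and the NK cell list 3.61, 3.52 and 3.49 over 6, with 3 and 4 of them below 3.77 on every array. B cell markers averaged 4.19, 3.81 and 3.63, and all 4 measured lay below both controls, where 37.9% of all genes did. Neutrophil markers averaged 3.45, 3.45 and 3.42 and dendritic cell markers 3.93, 3.94 and 3.71. The order of the Kupffer cell means was not particular to that list. Monocyte markers averaged 5.26, 5.45 and 5.46, endothelial markers 6.73, 6.83 and 7.07 and stellate cell markers 6.63, 6.67 and 6.81. Cholangiocyte markers averaged 3.80, 4.01 and 4.53, and these lists and the hepatocyte means given above all had that order. Among cholangiocyte markers Sox9 was at 3.87 and 4.82 against 6.69 (2.35, limma adjusted p = 0.0799) and Krt19, which defines these cells, was at 3.72, 3.79 and 3.59.

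**Figure D4:**
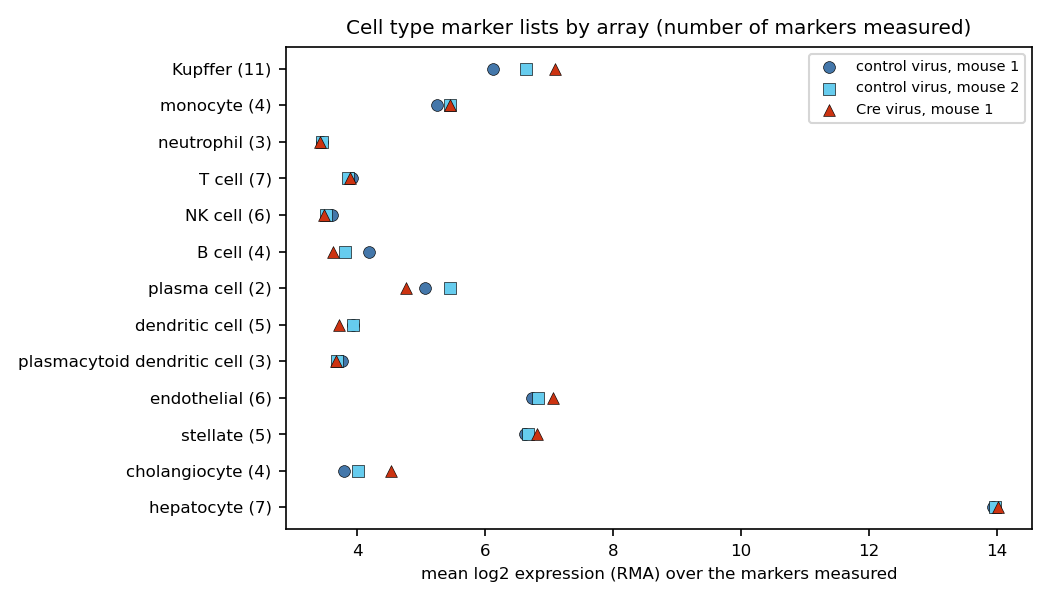
Mean log2 expression (RMA) over the measured markers of each cell type, 1 point per array, with the number of markers in parentheses. The Kupffer cell list runs from 6.12 and 6.65 in the controls to 7.09 in the Cre liver, and the points of the T cell and NK cell lists nearly coincide.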

How the data were processed

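Total liver RNA was labelled with biotin and hybridised to 1 single-colour array per mouse. Per the submitters' processing notes the authors used Partek 6.5 and RMA, and the deposited table holds log2 expression for each probe set. No source used here names the log base, which was taken as 2 from the range of the values. RMA equalises the arrays and compresses differences near background. The control mice are biological replicates, per the labels.

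Of 45101 probe sets 34945 listed 1 gene, 932 several and 9160 none, and 64 were array controls. Of those listing 1 gene, 34741 were found in a GRCm38.p6 gene table and took its symbol, except that members kept the platform's. All 18193 genes, with no filter on dim genes, were fitted in limma 3.58.1 (R 4.3.3) with lmFit and eBayes with an intensity trend, which left 1 residual and 2.87 prior degrees of freedom. The fit was tested on simulated data in which the Cre array varied as the controls do, so that assumption was not tested. The number of arrays limits the precision.

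The members, gene lists and tests were chosen with earlier results of these data known. All members were named, with every array's value for those called or 2-fold beyond both controls. Of other pathway genes up to 6 per direction, called or 2-fold beyond both controls, were named, with 8 fixed genes, and of cell markers those 2-fold beyond both controls. Others were named after their values were seen. Alternatives changed moderation, filter, scaling, probe set choice, controls and thresholds. Promoters came from RefSeq. Figures used matplotlib 3.10.9 in Python 3.11.15.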

Additional observations from a re-analysis of the deposited data

How the results depend on the processing

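No paired analysis was possible because the groups share fewer than 2 replicate numbers. Of 271 comparisons of single members with another setting that had a test, 229 kept their direction and side of the threshold, 33 became calls, 6 lost the call and 3 changed sign. With 1 control left out, where no test was possible, 59 of 64 values kept their direction and 5 changed sign. The signs turned for Irf8 (-0.056) and Oas2 (-0.081) with quantile normalization, for Tap1 (-0.00066) as the mean of its probe sets, and with 1 control left out for Irf7 (-0.077 to 0.43), Stat2 (-0.078 to 0.011), Oas2 (-0.086 to 0.17), Oasl2 (-0.054 to 0.48) and Mx2 (-0.20 to 0.0055). None of these members passed in the fit of all genes. Usp18, Igtp, Cxcl10 and Gbp2 passed in every setting run with a test that held them, whereas Irf1, Psmb8 and Xaf1 did not without the intensity trend (adjusted p = 0.0606, 0.0722 and 0.0597), Psmb8 and Xaf1 as means of probe sets, and Xaf1 without probe sets named _s_at, _x_at or _a_at (adjusted p = 0.0565).

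Counts of calls are given as members, other pathway genes and all genes, with 7, 10 and 446 higher and 0, 2 and 509 lower as reported. Without the trend 4, 5 and 264 rose and 0, 1 and 334 fell. With robust moderation 11 members and 978 genes rose and 1 member and 714 genes fell. The 30th percentile filter gave 11 members and 855 genes higher and 1 member and 663 genes lower, and the 50th 9 members and 765 genes higher and 1 member and 654 genes lower. Median centring gave 13, 21 and 1360 higher and 1, 5 and 836 lower, and quantile normalization 14, 20 and 1330 higher and 2, 8 and 1049 lower. Means of probe sets gave 7, 6 and 450 higher, and 1 member and 505 genes lower. Without probe sets named _s_at, _x_at or _a_at 4, 6 and 220 rose and 0, 0 and 324 fell. At an adjusted p under 0.10 there were 11, 17 and 1181 higher, and 1 member and 770 genes lower. At 1.5-fold beyond both controls lay 13 members and 1432 genes above and 2 members and 923 genes below. At 2-fold, 1 to 2 members lay below when 1 control was left out, the second being Oasl1 without control 2.

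The members' median difference was 0.29 with quantile normalization, 0.34 as means of probe sets, and 0.44 with either control left out (0.4394 and 0.4409). Over all genes it was 0.086 and 0.15 with the filters, 0.019 with median centring, 5.42e-05 with quantile normalization, -0.0066 as means of probe sets, 0.0017 with the brightest probe set of the controls, -0.0031 without the suffixed probe sets and 0.0052 to 0.0209 without 1 control. Hnf4a passed at -0.55 with robust moderation and both filters, at -0.54 with median centring and at -0.59 with quantile normalization. The causes of these shifts were not tested. Without 1 control no residual degrees of freedom remained, so those settings gave values without a test. A lone Cre mouse and readings near background limit all sizes.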

Other observations

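Some genes of the MHC class II pathway, which professional antigen-presenting cells use to show peptides to helper T cells, differed between the control livers. Over the 10 measured genes of that group control 2 minus control 1 ran from -0.48 (H2-Oa) to 0.99 (H2-Aa), and H2-Ob (0.07) and Cd86 (-0.15) differed little. H2-Aa was at 8.52 in control 1 and 9.51 in control 2, and at 9.46 in the Cre liver. H2-Eb1 was at 6.42, 7.37 and 7.47 in the same order, Cd74, the invariant chain, at 5.79, 6.71 and 6.89, and the protease gene Ctss at 7.37, 8.18 and 8.43. None of the 10 measured class II genes passed limma's test, at an adjusted or an unadjusted p under 0.05, with differences between -0.47 and 0.65. Of all genes 2.45% rose and 2.80% fell by the adjusted p, and 14.8% and 8.79% by the unadjusted p. The genes named here were picked after their values were seen. The Kupffer cell markers C1qa (6.68, 7.54 and 7.81) and Cd5l (7.97, 8.81 and 9.35) had the same order over the arrays as H2-Eb1, Cd74 and Ctss. That order was seen in 22.3% of all genes, and the Kupffer cell markers Marco, Cd68 and Csf1r did not have it.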
